A study of Mus musculus with 8 samples.

Results

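The 9 genes described here carry the insulin signal from the cell surface to the glucose transporter GLUT4: Insr, Irs1, Irs2, Pik3r1, Akt2, Tbc1d4, Slc2a4, Grb10 and Grb14. They were chosen by gene name for their place in this pathway, with earlier results of these data known. Each had 1 row in the table of 30387 genes, and all 9 passed the filter on low values (a mean of 5 or more per library), as did 18800 genes in all.

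RNA of isolated white adipocytes from the epididymal fat of male mice was sequenced in 4 groups of 2 libraries, each label naming 1 mouse. WT mice were littermates without the deletion. The knockout mice, Ad-Yap/Taz-KO in the labels and KO below, carry Adipoq-Cre and are homozygous for floxed Yap and for floxed Taz, so that both genes are deleted in adipocytes, where the adiponectin promoter drives Cre from the time these cells form. Both genotypes received SD (called normal chow in the labels) or HFD for 4 weeks, from week 5 of age per the labels and slightly later per the methods of the study. The comparisons address whether loss of YAP and TAZ in adipocytes changes gene expression on each diet, and what the diet changes in each genotype.

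Insulin binds its receptor on the adipocyte surface, and the receptor phosphorylates the docking proteins IRS1 and IRS2. These recruit phosphoinositide 3-kinase (PI3K), whose lipid product brings the kinase AKT2 to the membrane. AKT2 inactivates TBC1D4, a protein that holds vesicles with GLUT4 inside the cell, so that GLUT4 reaches the surface and glucose enters. GRB10 and GRB14 bind the activated receptor and dampen it. Visceral fat cells take up glucose largely by this route after a meal.

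Values are normalized counts, for which the authors divided each gene's reads by the size factor of the library and rounded the result. Between 14 and 22.3 M reads per library lay on genes. Wwtr1, which encodes TAZ, had 5594 and 4743 normalized counts in WT on SD, 2441 and 1957 in KO on SD, 7121 and 6807 in WT on HFD and 2060 and 2707 in KO on HFD. Yap1 had 2776 and 2717 in WT and 1669 and 1699 in KO on SD, a log2 fold change of -0.71 (adjusted p = 0.024 by limma), which kept its size but missed the limits without any 1 of the 4 SD or 2 WT HFD libraries (adjusted p between 0.07 and 0.17). On HFD it had 2468 and 2333 in WT and 1549 and 2068 in KO, which was not called (-0.42, adjusted p = 0.059). That value was -0.21 without KO replicate 1, -0.63 without KO replicate 2 (called) and -0.04 with all libraries at the same total. The libraries of a group were not equally close. In genes with 1000 to 5000 normalized counts, the median squared difference between the 2 libraries was 5.64 times the Poisson expectation in WT on HFD, 17.1 times in WT on SD, 41 times in KO on SD and 55.7 times in KO on HFD. The WT HFD libraries were therefore also entered as 1 averaged sample. Replicate 2 of KO on HFD had the lowest summed level of 12 adipocyte markers, 183598 normalized counts against 341183 in replicate 1 and 399362 to 689197 in the other libraries, and results are also given without it.

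On HFD, several transcripts of this route, from the receptor to the transporter, were lower in KO than in WT adipocytes. Of the 9 genes, 6 passed the test (Insr, Irs1, Pik3r1, Akt2, Slc2a4 and Grb14), all with lower values in KO, and the fitted log2 fold changes of the 9 ran from -2.46 to -0.27. A gene was called where the limma p, adjusted over all genes tested, was 0.05 or less and the log2 fold change was 0.59 or more in size. Log2 fold changes of single genes are given ± their standard error. By these limits 32.2% of all genes were called in this comparison, 15.1% as lower. Both KO libraries lay below both WT libraries for all 9 genes, as they did for 33% of all genes. The median log2 fold change was -0.73 over the 9 genes and 0.09 over all genes tested. With the libraries brought to the same total in place of the size factors of the authors, these medians were -0.35 and 0.47, 3 of the 9 genes were called (Akt2, Slc2a4 and Grb14) and the share of higher genes among all called ones went from 53.1% to 77.2%. Under that scaling the values of Grb10, Tbc1d4 and Irs2 turned to 0.06, 0.01 and 0.12, and with quantile normalization that of Irs2 turned to 0.18. In bulk RNA, fewer adipocytes in a sample and less RNA of a gene per adipocyte cannot be told apart.

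**Figure D1:**
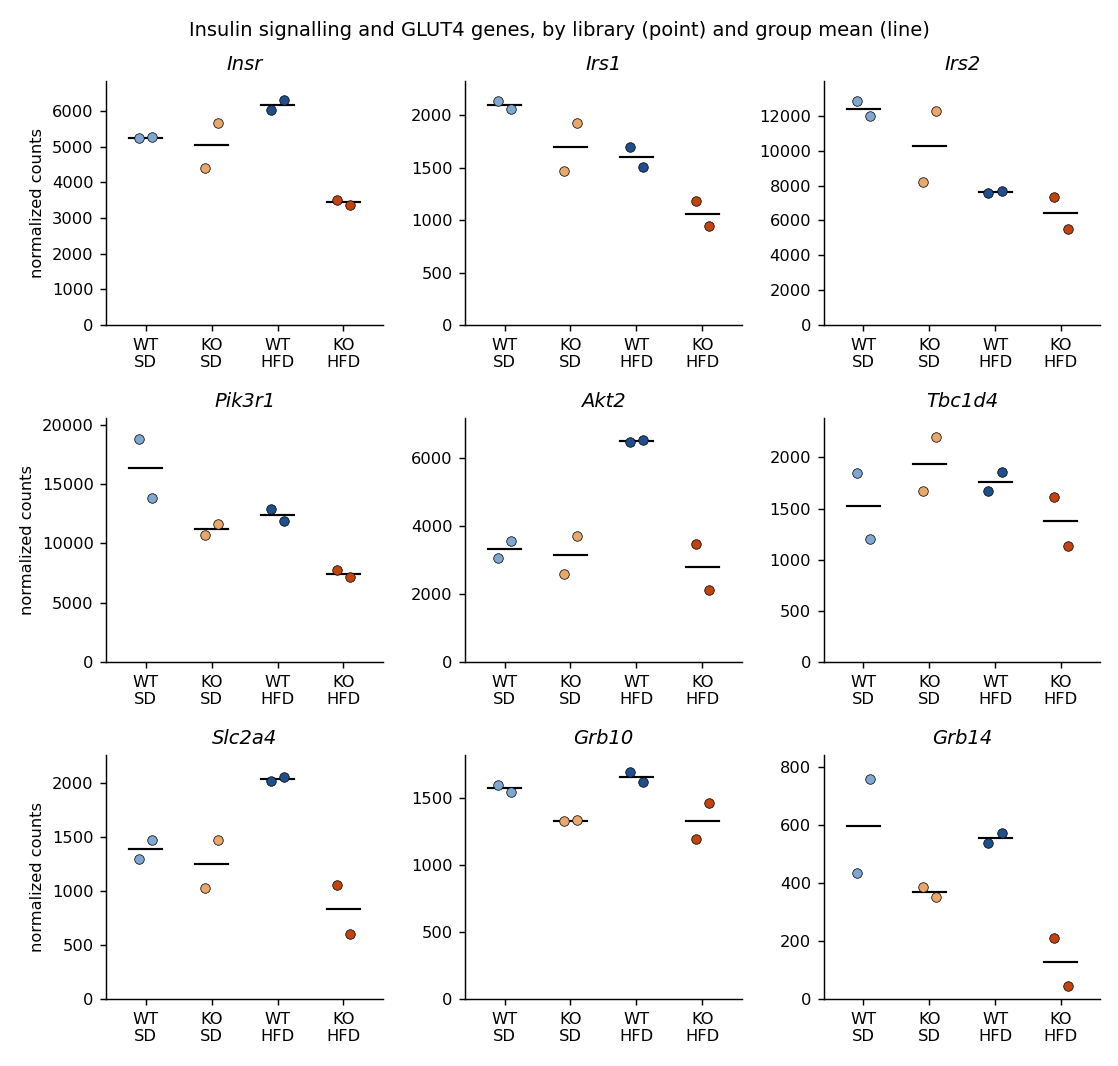
Normalized counts (vertical axes, from 0) of the 9 genes in each library (points) of WT and Ad-Yap/Taz-KO (KO) adipocytes on SD and HFD, with lines for the group means of 2 libraries. The KO libraries on HFD lie below both WT libraries on HFD in all 9 panels, and Akt2 and Slc2a4 are highest in WT on HFD.

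Insr (ENSMUSG00000005534, GRCm38 chromosome 8, 3122061 to 3279617, minus strand) encodes the insulin receptor. It had 5236 and 5279 normalized counts in WT on SD, 4417 and 5658 in KO on SD, 6028 and 6309 in WT on HFD and 3509 and 3374 in KO on HFD. The WT HFD pair was the highest and the KO HFD pair the lowest of the 8 libraries, and the SD pairs overlapped. The KO level on HFD was 0.558 of the WT level, -0.84 ± 0.15 on the log2 scale (adjusted p = 0.0012 by limma), and it hardly depended on a single library, with values between -0.87 and -0.81 when each was left out. Under scaling to the same total (-0.46) and quantile normalization (-0.50) the change fell short of the limit on its size.

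Irs1 (ENSMUSG00000055980, chromosome 1, 82233101 to 82291416, minus strand) encodes the docking protein through which the receptor reaches PI3K in fat and muscle. Its normalized counts were 2137 and 2061 in WT on SD, 1467 and 1926 in KO on SD, 1700 and 1512 in WT on HFD and 1181 and 942 in KO on HFD. Both WT libraries on SD were the highest and both KO libraries on HFD the lowest. The log2 fold change on HFD was -0.60 ± 0.18 (adjusted p = 0.019 by limma), just past the limit on size. It was lost without KO HFD replicate 2 (-0.44, adjusted p = 0.13), without WT HFD replicate 1 (-0.52, adjusted p = 0.15) or replicate 2 (adjusted p = 0.072), and under 6 of the 14 alternatives. These were scaling to the same total (-0.22, adjusted p = 0.30) or the upper quartile (-0.52), quantile normalization (-0.43, adjusted p = 0.073), no filter (adjusted p = 0.052), averaging of the WT HFD pair (adjusted p = 0.11) and stricter limits (an adjusted p of 0.01 and a log2 fold change of 1). Gm9747, a protein coding gene on the opposite strand, covers 30.9% of the exon bases of Irs1, and the strand setting of the counting is not given in the sources used here.

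Irs2 (ENSMUSG00000038894, chromosome 8, 10984681 to 11008458, minus strand) encodes the second docking protein. It had 12834 and 11985 normalized counts in WT on SD, 8231 and 12285 in KO on SD, 7587 and 7699 in WT on HFD and 7364 and 5489 in KO on HFD. All 4 HFD libraries lay below all 4 SD libraries, while the genotypes were close on HFD. The difference between the genotypes on HFD, -0.27 ± 0.20 on the log2 scale (adjusted p = 0.33 by limma), did not pass the test and was -0.05 without KO HFD replicate 2.

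Pik3r1 (ENSMUSG00000041417, chromosome 13, 101680563 to 101768217, minus strand) encodes the main regulatory subunit of PI3K, which binds the phosphorylated docking proteins. The libraries held 18791 and 13818 normalized counts in WT on SD, 10710 and 11638 in KO on SD, 12872 and 11923 in WT on HFD and 7735 and 7180 in KO on HFD. On each diet both KO libraries were below both WT libraries. On HFD the log2 fold change was -0.73 ± 0.17 (adjusted p = 0.0058 by limma). The call did not hold with the WT HFD pair averaged (adjusted p = 0.061), without WT HFD replicate 1 (adjusted p = 0.071), scaled to the same total (-0.35, adjusted p = 0.13) and with quantile normalization (-0.21, adjusted p = 0.38).

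Akt2 (ENSMUSG00000004056, chromosome 7, 27591552 to 27640826, plus strand) encodes the AKT kinase that insulin uses to move GLUT4. It had 3058 and 3568 normalized counts in WT on SD, 2590 and 3691 in KO on SD, 6461 and 6530 in WT on HFD and 3479 and 2117 in KO on HFD. The WT HFD pair stood far above the other 6 libraries, which overlapped one another. On HFD the KO level was 0.418 of the WT level, -1.26 ± 0.23 on the log2 scale (adjusted p = 0.0011 by limma). It was called with each library left out (-1.62 to -0.90, the latter without KO HFD replicate 2) and under each other normalization (-1.56 to -0.87 over the 14 alternatives).

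Tbc1d4 (ENSMUSG00000033083, chromosome 14, 101442360 to 101609191, minus strand) encodes the AKT substrate that restrains GLUT4 vesicles. Its normalized counts were 1849 and 1200 in WT on SD, 1674 and 2194 in KO on SD, 1667 and 1853 in WT on HFD and 1616 and 1134 in KO on HFD. The pairs overlapped or nearly touched in every comparison. The log2 difference between the genotypes on HFD was -0.38 ± 0.23 (adjusted p = 0.22 by limma), and -0.12 without KO HFD replicate 2.

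Slc2a4 (ENSMUSG00000018566, chromosome 11, 69942539 to 69948188, minus strand) encodes GLUT4 itself. It had 1297 and 1474 normalized counts in WT on SD, 1030 and 1477 in KO on SD, 2015 and 2055 in WT on HFD and 1058 and 604 in KO on HFD. As for Akt2, the WT HFD pair was the highest and the SD groups overlapped. The KO level on HFD was 0.393 of the WT level, -1.35 ± 0.24 on the log2 scale (adjusted p = 0.0011 by limma). The call held without each library (-1.75 to -0.94) and under all 14 alternatives (-1.75 to -0.96).

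Grb10 (ENSMUSG00000020176, chromosome 11, 11930508 to 12038683, minus strand) and Grb14 (ENSMUSG00000026888, chromosome 2, 64912476 to 65024987, minus strand) encode the adaptors that dampen the receptor. Grb10 had 1602 and 1551 normalized counts in WT on SD, 1330 and 1335 in KO on SD, 1693 and 1623 in WT on HFD and 1193 and 1463 in KO on HFD. The KO libraries were below the WT libraries on both diets, by small amounts: -0.33 ± 0.15 on HFD on the log2 scale (adjusted p = 0.12 by limma). Grb14 had 435 and 757 in WT on SD, 387 and 352 in KO on SD, 538 and 572 in WT on HFD and 213 and 47 in KO on HFD. Its 2 KO libraries on HFD were the lowest of the 8 and differed widely from each other. The log2 fold change on HFD was -2.46 ± 0.50 (adjusted p = 0.0024 by limma). It was called under all 14 alternatives and without each library, but its size rested on replicate 2: -1.38 without that library and -3.53 without replicate 1.

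**Figure D2:**
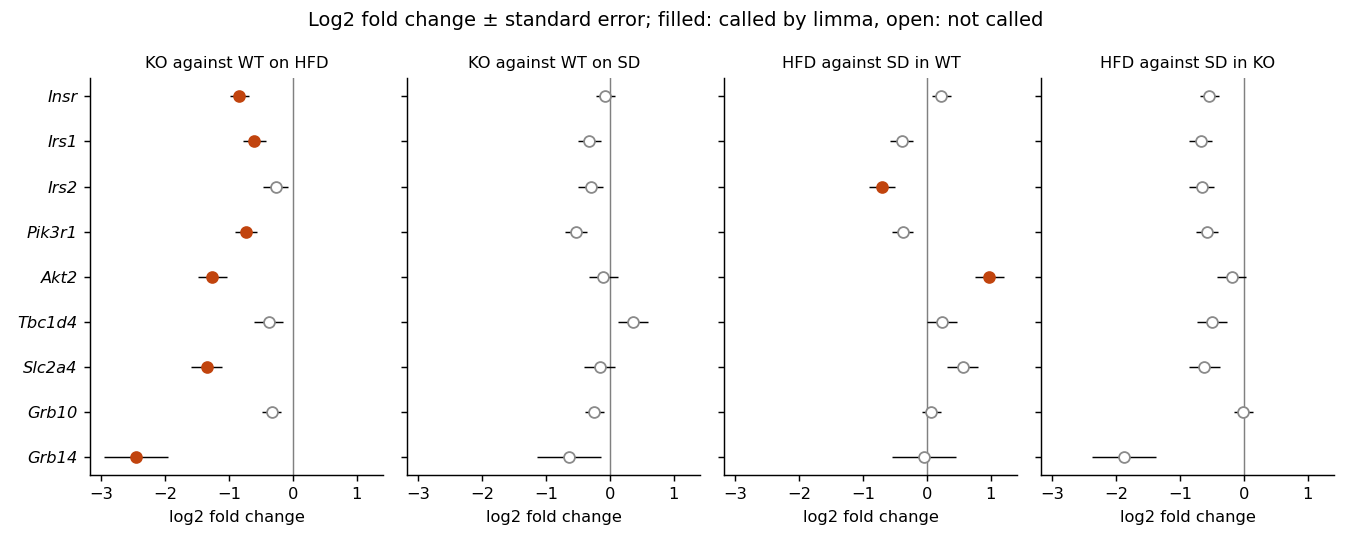
Log2 fold change (horizontal axes) with its standard error (bars) for the 9 genes (rows) in 4 comparisons of 2 libraries against 2, with filled points for genes called by limma and open points for the others. Filled points are 6 in the comparison of Ad-Yap/Taz-KO (KO) against WT on HFD, 2 in WT mice between diets and 0 in the other 2 panels.

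Markers of the cell types moved with the same comparison. Of 12 adipocyte markers, which were above 0 in every library, 11 were lower and 0 higher in KO on HFD, with a median log2 fold change of -1.54. Their summed level was 689197 and 679513 normalized counts in WT against 341183 and 183598 in KO. All 12 macrophage markers were higher, with a median of 4.13, and their sum was 2508 and 2448 normalized counts in WT against 35286 and 32621 in KO (Fcgr1 was listed at 0 in 1 library). Of 8 fibroblast and progenitor markers 6 were higher and 0 lower, with sums of 24899 and 25503 against 85619 and 95842, and of 8 endothelial markers 3 were higher, with sums of 14948 and 15376 against 19718 and 30167. The endothelial count was 1 without KO HFD replicate 2 and with the WT HFD pair averaged, 5 with quantile normalization and 7 with the same total. Of 6 mesothelial markers 1 was higher and 1 lower, with a median of -1.14 but higher sums in KO, 179 and 214 against 327 and 715. Of 5 lymphocyte markers tested 2 were higher and 0 lower, with a median of 1.90, and 0 were called without KO HFD replicate 2. All 8 on the list summed to 45 and 41 against 144 and 292, with Cd3d at 0 in 6 libraries and Nkg7 in 5. The part of these other cells in the values of the 9 genes was not tested.

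Adiponectin (Adipoq), a hormone that adipocytes alone produce at high levels, stood at 54830 and 53308 normalized counts in WT against 27322 and 13284 in KO on HFD. Set against it, Slc2a4 had 36.7 and 38.5 normalized counts per 1000 of Adipoq in WT on HFD and 38.7 and 45.5 in KO on HFD, beside 36.9 to 44.1 in the 4 SD libraries. The ratio to Adipoq thus differed little between groups whose Slc2a4 level differed widely, but other markers gave other ratios. In turn against each of the 12 adipocyte markers, a choice made after seeing the data, Slc2a4 was higher in both KO libraries on HFD for 7, lower in both for 3 (Fabp4, Pnpla2 and Lpl) and overlapped for 2. Per 1000 of Fabp4, which encodes a fatty acid carrier, it had 31 and 36.4 in WT and 16.5 and 16.5 in KO. For Akt2 the ratio was 118 and 122 in WT and 127 and 159 in KO on HFD, above the 87 to 107 of the 4 SD libraries. For Insr it was 110 and 118 against 128 and 254, and for Irs2 138 and 144 against 270 and 413. Relative to Adipoq, all members but Grb14 were higher in both KO libraries on HFD, Irs1 (31 and 28.4 against 43.2 and 70.9) and Pik3r1 (235 and 224 against 283 and 540) included. Over the 12 markers this held for 7 in Akt2, 9 in Insr and Pik3r1, 10 in Irs1 and Grb10, and 11 in Irs2 and Tbc1d4. Grb14 went the other way, with 9.81 and 10.7 in WT and 7.80 and 3.54 in KO, and was lower in both KO libraries for 9 of the 12 markers. These ratios are descriptions, since Adipoq itself changed between the groups (log2 fold change -1.5, adjusted p = 0.0017 by limma).

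**Figure D3:**
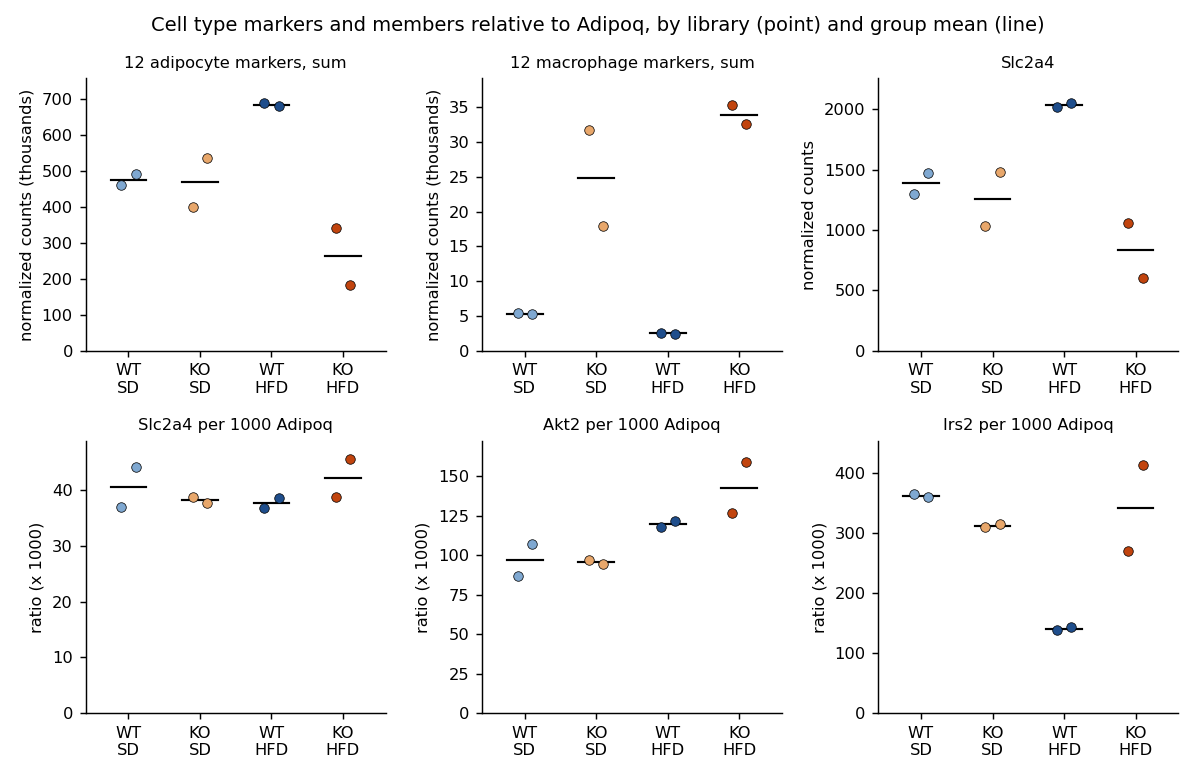
Summed normalized counts of 12 adipocyte and 12 macrophage markers in units of 1000 and Slc2a4 in normalized counts (upper row), and Slc2a4, Akt2 and Irs2 per 1000 normalized counts of Adipoq (lower row), by library (points) with group means (lines), for WT and Ad-Yap/Taz-KO (KO) on SD and HFD. Slc2a4 follows the adipocyte marker sum and its ratio to Adipoq stays between 36.7 and 45.5 in all 8 libraries, while the Irs2 ratio is lowest in WT on HFD at 138 and 144.

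YAP and TAZ bind DNA through TEAD factors, whose core motif is GGAATG. The 250 bases before RefSeq start sites (GRCm38.p6) were searched for it on both strands (CATTCC on the other). Of 12 start sites given for 7 of the 9 genes, 3 held it (25%), against 12.6% of all 32851 start sites. The windows of Irs1 and Pik3r1 are shown, with the motif in capitals. Both genes were called on HFD, and both windows lie outside the annotated exons of the 9 genes. Overlap with exons of other genes was not checked. A match is a run of letters and does not show binding. The first is the window at chr1:82291440-82291689 (minus strand), where the motif begins 201 bases before the start site, and the other is that of the inner start site of Pik3r1 at chr13:101692631-101692880 (minus strand), where it begins 17 bases before.
Irs1: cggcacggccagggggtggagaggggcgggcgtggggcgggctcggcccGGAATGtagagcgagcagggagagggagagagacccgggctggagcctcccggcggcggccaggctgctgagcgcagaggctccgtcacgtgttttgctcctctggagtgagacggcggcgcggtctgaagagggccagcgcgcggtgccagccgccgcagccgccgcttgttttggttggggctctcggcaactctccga
Pik3r1: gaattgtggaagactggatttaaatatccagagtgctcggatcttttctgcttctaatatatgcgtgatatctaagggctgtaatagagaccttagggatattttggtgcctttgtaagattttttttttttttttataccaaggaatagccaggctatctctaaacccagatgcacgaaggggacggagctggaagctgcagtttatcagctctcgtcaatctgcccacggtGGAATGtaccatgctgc
The outer start site of Pik3r1 did not hold the motif. Neither did the windows of Irs2, Tbc1d4, Grb10 and Grb14, and Akt2 held it at 1 of its 4 start sites. The Irs1 window is 72.4% G and C and that of the inner Pik3r1 site 42.4%.

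On SD no difference between the genotypes passed the test in these genes. None of the 9 was called by limma, beside 4.71% of all genes. Pik3r1 alone of the 9 had an unadjusted limma p below 0.05, a limit at which all genes were not counted. Both KO libraries lay below both WT libraries for 4 of the 9 genes (Irs1, Pik3r1, Grb10 and Grb14), as for 22.2% of all genes. The median log2 fold change was -0.24 over the 9 genes and -0.01 over all genes. Pik3r1 had -0.53 ± 0.17 (adjusted p = 0.12 by limma), and Insr, Akt2 and Slc2a4 had -0.07, -0.10 and -0.16, values smaller than their standard errors of 0.15, 0.23 and 0.24. The 2 KO libraries on SD bracketed the WT pair for each of these last 3 genes, replicate 1 being the lower. The macrophage marker sum was 31790 and 17923 normalized counts in KO on SD against 5384 and 5255 in WT, with 11 of 12 markers called higher. The adipocyte marker sum was 399362 and 537312 against 460118 and 491171, with 0 of 12 called. A p above the limit does not show that the 9 genes were equal in both genotypes, and leaving out each library called none of them.

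Between diets in WT mice, Akt2 was higher and Irs2 lower on HFD, and the other 7 genes did not pass the test. These 2 of 9 stand beside 18% of all genes called (8.74% higher and 9.22% lower), a share near that of the members. The 2 libraries of each diet did not overlap for 7 of the 9 genes, 4 being higher on HFD (Insr, Akt2, Slc2a4 and Grb10) and 3 lower (Irs1, Irs2 and Pik3r1), while 65% of all genes did not overlap. Scaled to the same total, which moved the median of all genes from -0.08 to -0.48, the values of Insr and Grb10 turned to -0.18 and -0.34, and those of Irs1 and Pik3r1 were called lower at -0.80 and -0.79. Akt2 rose to 1.97 times its SD level, 0.98 ± 0.23 on the log2 scale (adjusted p = 0.012 by limma), but was not called with the same total (0.56, adjusted p = 0.048) or quantile normalization (0.68, adjusted p = 0.055). Under both of these 0 members were called higher and 3 lower. Of all genes 470 were then called higher and 3567 lower with the same total, and 873 and 1313 with quantile normalization. Irs2 fell by 0.70 ± 0.20 on the log2 scale (adjusted p = 0.029 by limma), and had -0.47 (adjusted p = 0.16) with a trend over GC content and exon length removed. Slc2a4 had 0.56 ± 0.24 (adjusted p = 0.12) and was called with that trend removed (0.87, adjusted p = 0.031), Irs1 had -0.39 (adjusted p = 0.14) and Pik3r1 had -0.38 (adjusted p = 0.14). Leaving out any of the 4 WT libraries lost both calls, with adjusted p between 0.052 and 0.12 for Akt2 and between 0.11 and 0.17 for Irs2, and so did entering the WT HFD pair as 1 sample (0.11 and 0.18). Over the same comparison the 12 adipocyte markers had a median of 0.70, with 2 called higher and 1 lower (8 higher without KO HFD replicate 2, 0 higher with the WT HFD pair averaged). Of the 12 macrophage markers 11 were called lower (7 with quantile normalization). Of 8 fibroblast and progenitor markers 4 were called lower, and of 8 endothelial markers 4 (7 with the same total and 6 with quantile normalization). Few of these calls held with the pair averaged, where the medians of these lists were -1.16, -0.88 and -0.78 in that order.

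In KO mice the same diet gave values below zero for all 9 genes, from -1.87 for Grb14 to -0.01 for Grb10, the latter 0.00 with the same total and 0.01 with quantile normalization. No gene of the 9 was called by limma, beside 1.07% of all genes in this comparison. An unadjusted limma p below 0.05 was reached by 7, but all genes were not counted at that limit. The HFD libraries lay below the SD libraries for 6 of the 9 genes, against 19.3% of all genes, the exceptions being Akt2, Slc2a4 and Grb10. The median was -0.58 over the 9 genes and 0.03 over all genes. Irs1 had -0.67 ± 0.18 (adjusted p = 0.093 by limma), Irs2 -0.66 ± 0.20 (adjusted p = 0.13), Slc2a4 -0.62 ± 0.24 (adjusted p = 0.24) and Insr -0.54 ± 0.15 (adjusted p = 0.11). Up to 4 genes were called when 1 library was left out. Without KO HFD replicate 1 these were Grb14 (-2.95), Slc2a4 (-1.03), Irs2 (-0.87) and Irs1 (-0.83), and without KO SD replicate 1 they were Irs2 (-0.95), Irs1 (-0.87) and Insr (-0.72). The adipocyte marker sum fell from 399362 and 537312 normalized counts on SD to 341183 and 183598 on HFD, with 1 of 12 markers called lower. Of the fibroblast and progenitor markers 3 of 8 were called higher (median 1.17), and of the macrophage markers 1 of 12 (median 0.81). Neither count held without KO HFD replicate 2, where the medians were 0.99 and 0.96, or with the WT HFD pair averaged. Without KO SD replicate 1 these counts were 3 lower for adipocytes and 7 and 8 higher for the other lists, and 5 of 8 endothelial markers were higher.

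Put side by side, the diet values of WT and KO mice were 0.98 and -0.19 for Akt2, 0.56 and -0.62 for Slc2a4, 0.23 and -0.54 for Insr, and -0.70 and -0.66 for Irs2, all as log2 fold changes. The interaction of genotype and diet, that is the effect of the knockout on HFD less that on SD, tests these differences, and 3 of the 9 genes passed it by limma, beside 17.4% of all genes (8.73% lower). They were Akt2 (-1.16 ± 0.32, adjusted p = 0.027), Slc2a4 (-1.18 ± 0.34, adjusted p = 0.034) and Insr (-0.77 ± 0.22, adjusted p = 0.031). Irs2 had 0.04 (adjusted p = 0.94), Grb14 -1.82 (adjusted p = 0.092) and Tbc1d4 -0.74 (adjusted p = 0.13). The 3 calls rested on few libraries: all were lost with the WT HFD pair as 1 sample (adjusted p = 0.11 for Akt2, 0.12 for Slc2a4 and 0.13 for Insr) and without any 1 of the 4 WT libraries, KO SD replicate 2 or KO HFD replicate 2. Without the last of these they had -0.81, -0.78 and -0.74 in the order Akt2, Slc2a4 and Insr. The adipocyte markers had a median interaction of -1.41, with 10 of 12 called lower, while 12 of 12 macrophage, 7 of 8 fibroblast and progenitor and 7 of 8 endothelial markers were called higher. With the WT HFD pair averaged these counts were 0, 7, 4 and 1, and without KO HFD replicate 2 they were 6, 9, 5 and 1. With the same total and quantile normalization 6 and 2 adipocyte markers were called lower.

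Per kilobase of annotated exon, a scale on which levels of different genes can be compared, Irs2 and Pik3r1 were the most abundant of the 9, with means of 1453 and 1174 normalized counts per kilobase over the 8 libraries. Akt2 followed with 552.1, Slc2a4 with 395.7 and Insr with 362, and then Tbc1d4 with 214.7, Irs1 with 176.7, Grb10 with 162.1 and Grb14 with 57.43. Neighbours in this order overlapped across the libraries of a group in several places. In WT on SD, for example, Slc2a4 had 372.9 and 423.8 and Insr 380.9 and 384, and in WT on HFD Irs2 had 1200 and 1218 and Pik3r1 1277 and 1183. Grb14 was the lowest of the 9 in all 4 groups, and Akt2 had rank 3 in each.

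Ratios between members of a family, which were not tested, are given per exon length. On this scale Akt2 stood at 1.05 and 1.33 times Akt1 in WT on SD, 0.821 and 1.26 in KO on SD, 3.19 and 3.14 in WT on HFD and 0.969 and 0.640 in KO on HFD. The ratio was thus highest in WT on HFD. Akt1, the broadly expressed kinase of this family, was itself higher in KO on HFD (log2 fold change 0.75, limma adjusted p = 0.0019). Slc2a4 stood at 1.58 and 1.61 times Slc2a1, which encodes the transporter GLUT1 that works without insulin, in WT on HFD. It stood at 0.662 and 0.543 times Slc2a1 in KO on HFD, 0.802 and 0.809 in WT on SD and 0.567 and 0.659 in KO on SD. Slc2a4 was thus above Slc2a1 in the 2 WT HFD libraries and below it in the other 6, while Slc2a1 did not pass the test between genotypes (0.06 on HFD, adjusted p = 0.83, and 0.23 on SD, adjusted p = 0.59). Irs1 stood at 0.108 to 0.155 times Irs2 in all 8 libraries, highest in WT on HFD with 0.155 and 0.136. Grb10 stood at 1.62 to 3 times Grb14 in 6 libraries, and at 4.43 and 24.6 times in KO on HFD.

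The genes whose log2 values followed Slc2a4 most closely over the 8 libraries, among 12092 with a mean of at least 50, were Apol6 (Pearson r 0.997), Plin4 (0.995), which encodes a coat protein of lipid droplets, and Gstz1 (0.994). Plin4 is one of the 12 adipocyte markers. Apol6 had 10005 and 9619 normalized counts in WT on HFD against 2936 and 1203 in KO on HFD. For Insr they were Clock (0.989), a transcription factor of the circadian clock, Lnpep (0.989), the aminopeptidase that travels in GLUT4 vesicles, and Acss3 (0.988). The 8 points are 4 groups of 2 and share library scaling, so these values describe likeness only.

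The rest of the pathway was described with 93 further genes in 7 roles, of which 91 were tested. On HFD 42 of them were called in KO against WT, 15 higher and 27 lower (46.2%, beside 32.2% of all genes), and their median log2 fold change was -0.37. Without WT HFD replicate 2 the count was 26. Of 28 genes of GLUT4 vesicle traffic 10 were called lower and 1 higher, but 6 lower and 7 higher with the libraries brought to the same total and 6 lower and 5 higher with quantile normalization. Of 16 outputs of AKT and mTORC1 7 were called lower and 1 higher, against 2 lower and 1 higher with the same total. Fewer were called without KO HFD replicate 2 or with the WT HFD pair averaged. The median of this role was -0.53, and -0.39 without KO HFD replicate 2. PI3K subunits had 4 of 7 called higher and 0 lower under every scaling. Those 4 were Pik3r5, Pik3cg, Pik3cd and Pik3r3. Pik3ca, Pik3cb and Pik3r2 were not called, and the member Pik3r1, outside this list, was called lower. Pik3ca had 2302 and 2364 normalized counts in WT on HFD against 1947 and 1678 in KO. Pik3cb had 1965 and 1851 against 1721 and 1078, and Pik3r2 had 1039 and 1154 against 1263 and 1130. For all 91 genes the same total gave 24 higher and 11 lower. The other roles had 2 higher and 3 lower of 7 AKT kinases and their activators, 2 and 3 of 11 receptor and adaptor genes, 3 and 2 of 13 brakes, and 2 and 2 of 9 genes for other glucose transporters and glucose trapping. With the same total these were 2 and 0, 3 and 1, 5 and 1, and 2 and 1 in that order, and without KO HFD replicate 2 the brakes had 0 and 1.

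The largest falls by the rule for naming were in Ptprf, a receptor phosphatase that acts on the insulin receptor, Tusc5, a protein of GLUT4 vesicles, and Slc2a13, an inositol transporter. Ptprf stood at 1385 and 1143 normalized counts in WT against 338 and 216 in KO on HFD (log2 fold change -2.21, limma adjusted p = 1.3e-05). Tusc5 had 23067 and 23446 against 9757 and 4099 (-1.88, adjusted p = 0.00059), and Slc2a13 had 922 and 861 against 286 and 206 (-1.87, adjusted p = 0.00014). Further vesicle traffic genes that fell, named after their values were seen, were Myo1c, a motor that brings vesicles to the membrane (-1.70), Cav1 of the caveolae (-1.63) and Sort1, which sorts GLUT4 into its vesicles (-1.49). Tbc1d1, the close relative of Tbc1d4, was the 1 gene of this role called higher (2.21 times the WT level, adjusted p = 0.00023), beside 0.770 times for Tbc1d4 itself, which was not called. Among AKT outputs, also named after their values were seen, Acly, which makes acetyl-CoA for fat synthesis, had -1.67, Pde3b, through which insulin restrains lipolysis, -0.90, and Foxo1, a transcription factor that AKT inactivates, -0.86.

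The largest rises were in Hk3, Pik3r5 and Pik3cg, a hexokinase and 2 PI3K subunits known for high levels in white blood cells. Hk3 stood at 32 and 24 normalized counts in WT against 1395 and 966 in KO on HFD (log2 fold change 5.34, limma adjusted p = 6.8e-08). Pik3r5 had 147 and 111 against 3323 and 3235 (4.67, adjusted p = 7.6e-07), and Pik3cg had 33 and 51 against 362 and 284 (2.94, adjusted p = 9.9e-05). The groups did not overlap for any of these genes. The same 3 had the largest rises on SD, 2.77, 2.94 and 2.03, in libraries whose macrophage marker sums were higher too. Whether other cell types account for the rises of these 3 genes was not tested. Pik3cg was not called on SD without WT SD replicate 2 (adjusted p = 0.082) or KO SD replicate 1 (adjusted p = 0.062), or in a fit of the 2 SD groups alone (adjusted p = 0.055). Macrophage marker Adgre1 stood at 73 and 90 normalized counts in WT against 3314 and 3178 in KO on HFD, and 150 and 152 against 1699 and 922 on SD, while Cd68 had 143 and 201 against 3183 and 3020 on HFD.

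**Figure D4:**
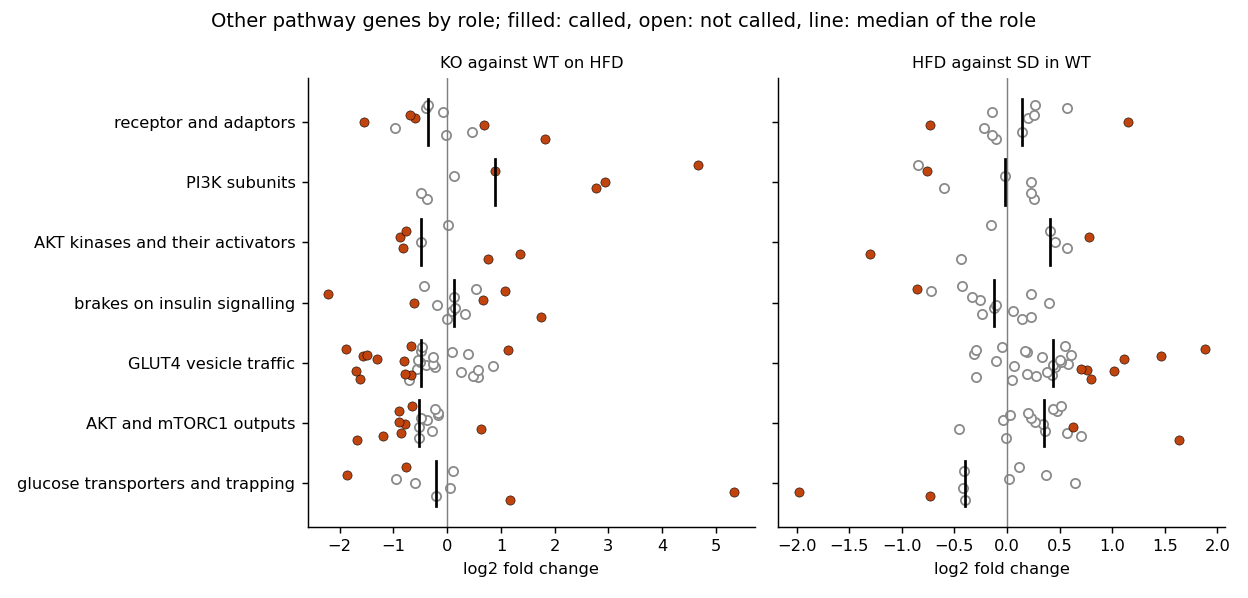
Log2 fold changes (horizontal axes) of 91 further pathway genes by role (rows, with points spread vertically for legibility) for Ad-Yap/Taz-KO (KO) against WT on HFD and for HFD against SD in WT, with filled points for called genes and lines for the median of each role. GLUT4 vesicle traffic has a median of -0.49 in the left panel and 0.43 in the right one, and PI3K subunits reach 4.67 in the left panel.

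On SD only 7 of the 91 genes were called (7.69%, beside 4.71% of all genes), 5 higher and 2 lower. The 2 were Phlpp2, a phosphatase that switches AKT off (-1.40, limma adjusted p = 0.00063), and Ptprf (-1.07, adjusted p = 0.013). The latter missed the limits without either WT SD library or KO SD replicate 1 (adjusted p between 0.06 and 0.19) and with no filter (0.081). Phlpp2 stood at 803 and 858 normalized counts in WT against 277 and 358 in KO on SD, but 756 and 797 against 725 and 635 on HFD. In KO mice it was therefore the 1 pathway gene called higher on HFD (1.10, adjusted p = 0.016), Slc2a13 being the 1 called lower (-1.72, adjusted p = 0.011). In that comparison 11 were called without KO HFD replicate 1, 10 without KO SD replicate 1, 1 without KO HFD replicate 2, and 0 without KO SD replicate 2 or either WT HFD library.

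Between diets in WT mice 17 of the 91 genes were called, 11 higher and 6 lower (18.7%, beside 18% of all genes), a share near that of all genes. The count was 3 or 10 without 1 of the WT SD libraries and 6 or 5 without 1 of the WT HFD libraries. Of the 28 vesicle traffic genes 7 were called higher and 0 lower, with a median of 0.43. When totals were made equal, 4 were called higher and 3 lower, with a median of 0.02. Under that scaling the 91 genes had 5 higher and 19 lower, and all genes had 470 higher and 3567 lower. The largest rises were in Tusc5 (1.88, limma adjusted p = 0.0022) and Acly (1.64, adjusted p = 0.00027). When 1 library was left out, Tusc5 ranged from 1.66 to 2.1, and its call did not hold in every such fit. Tusc5 had 5429 and 7368 normalized counts on SD and 23067 and 23446 on HFD. Genes that fell included Hk3 (-1.98, adjusted p = 0.00086) and Socs3, an inhibitor of the receptor (-0.86, adjusted p = 0.0084). Socs3 was not called without WT SD replicate 1 (-0.57) or either WT HFD library, with the pair averaged (adjusted p = 0.097) or with the GC and length trend removed (-0.41). The interaction was called for 24 of the 91 genes, 8 higher and 16 lower (26.4%, beside 17.4% of all genes), with 0 higher and 7 lower in vesicle traffic (2 and 6 with the same total, 0 and 1 with the WT HFD pair averaged). The count of 24 was 4 to 15 without any 1 of the 4 WT libraries, KO SD replicate 2 or KO HFD replicate 2.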

How the data were processed

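RNA-seq of isolated white adipocytes gave 8 libraries in 4 groups of 2, assigned to groups by genotype and diet as the labels give them. Total RNA was depleted of ribosomal RNA and made into stranded single-end libraries. Per the labels and the methods of the study, the authors used Reaper for trimming, STAR 2.5.2b for alignment to GRCm38 and DESeq2 1.14.1 for testing, and counted reads on exons with featureCounts 1.5.1 without reads on several genes or places. Whether the counting used strand is not given in the sources used here. The deposited values are a score: the authors divided the reads of each gene by the size factor of the library and then rounded the quotient to a whole number, called a normalized count here. As rounding hides whole reads, no count test was run here. The value of 1 read in each library (0.7954 to 1.1350) was estimated from which whole numbers occur, which gave the reads on genes. Reads carry no molecular identifiers.

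Of the 30387 genes, the 18800 whose 8 values averaged 5 or more were tested with limma 3.58.1 (lmFit, contrasts.fit, eBayes with trend, R 4.3.3) on log2 values after a pseudocount of 1 was added, in 1 fit of 4 group means (residual degrees of freedom 4, prior 8.59). Fold changes are on that scale. P-values were adjusted by Benjamini-Hochberg over all genes tested, and the limits for a call (adjusted p of 0.05, log2 fold change of 0.59) are those of the study. A simulation with known changes served to test the fit. It gave every gene and every group the same spread setting, so it could not test the fit on groups of unlike spread. With 2 libraries against 2, an exact two-sided permutation test cannot go below p = 0.333, so none was run, and p-values rest on the spread shared across genes. Comparisons between genotypes and between diets share libraries and are not independent of each other.

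The 9 members and all lists were chosen with earlier results of these data known. Named genes are the 9 members in every comparison, and of the further pathway genes, per comparison, the 3 most raised and the 3 most lowered called genes whose mean was 50 or more and whose libraries did not overlap (for the interaction, without that condition), the 3 genes most correlated with Slc2a4 and with Insr, the targeted genes Yap1 and Wwtr1, and Adipoq, Lep, Slc2a1, Adgre1 and Cd68. Some genes that this rule names are counted but not reported here. Other names were chosen after their values were seen. Of the 30387 identifiers, 30259 were found in GENCODE vM21 (GRCm38), which gave positions, exon lengths and overlaps. Promoter windows came from RefSeq (GRCm38.p6). The alternatives, 14 settings and each of the 8 libraries left out, are given in the closing section. Whether replicate numbers pair libraries was checked: deviations of same-numbered libraries correlated between -0.300 and 0.108 across 12093 genes, so they were not treated as pairs. Python 3.11.15 (pandas 2.3.3, numpy 2.4.6, matplotlib 3.10.9) made the tables and plots.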

Additional observations from a re-analysis of the deposited data

Results flagged for a closer look

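In 3 members and 4 of the further pathway genes, all named by rule, the diets differed in what the knockout did, by the test of that difference itself (the interaction in limma, as the log2 effect of the knockout on HFD less that on SD). Of the members these were Akt2 (-1.16, adjusted p = 0.027), Slc2a4 (-1.18, adjusted p = 0.034) and Insr (-0.77, adjusted p = 0.031). All 3 missed the limits with the WT HFD libraries as 1 sample, with no filter on low values, scaled to the same total and with quantile normalization, and without 6 of the 8 libraries in turn, and Insr (adjusted p = 0.052) and Slc2a4 (adjusted p = 0.053) also missed them with the replicate number as a block, Insr also with upper-quartile scaling (-0.64, adjusted p = 0.057), and all 3 at the stricter limits.

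Among further pathway genes, the knockout effect was higher on HFD for Hk3 (2.57, adjusted p = 0.0033) and Pik3r5 (1.73, adjusted p = 0.027). It was lower on HFD for Slc2a13 (-2.09, adjusted p = 0.005) and Tusc5 (-1.99, adjusted p = 0.012). Hk3 and Slc2a13 were called under all 13 alternatives that gave an interaction and without each library in turn. Tusc5 was called under 10 of the 13 alternatives, and not without WT SD replicate 1 or either WT HFD library. Pik3r5 was called under 9, and not without any 1 of those 3 libraries, KO SD replicate 2 or KO HFD replicate 2 (1.13 to 2.33 over the 8). Groups of 2 libraries were too small for a test of single outlying samples.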

How the results depend on the processing

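Between genotypes on HFD the 6 member calls became 3 with all libraries brought to the same total, 3 with quantile normalization and 3 at an adjusted p of 0.01 with a log2 fold change of 1, and 4 to 6 when 1 library was left out. For the diets in WT the 2 calls became 0 with no filter, 0 with the WT HFD libraries averaged, 0 at the stricter limits, 1 with the replicate block, and 0 to 2 without 1 library. Their number was 3, all lower and Akt2 not among them, with the same total and with quantile normalization. For the interaction the 3 calls became 0 with no filter, 0 with the same total, 0 with quantile normalization, 0 with averaging, 0 at the stricter limits, 2 with upper-quartile scaling, 1 with the block, and 0 to 5 without 1 library. The 0 calls of the diets in KO became 0 to 4 without 1 library, and those of the genotypes on SD stayed at 0. Where a library was left out, the lone one was assumed to vary like the other groups. With the same total, signs turned for Grb10 (0.06), Tbc1d4 (0.01) and Irs2 (0.12) between genotypes on HFD, for Insr (-0.18), Grb10 (-0.34) and Tbc1d4 (-0.18) between diets in WT, for Grb10 (0.00) between diets in KO, and for Grb10 (0.34), Pik3r1 (0.23) and Irs1 (0.15) in the interaction. With upper-quartile scaling they turned for Grb10 between diets in WT (-0.06) and in the interaction (0.04). With quantile normalization they turned for Irs2 on HFD (0.18), Insr (-0.06) and Grb10 (-0.14) between diets in WT, Grb10 between diets in KO (0.01), and Grb10 (0.15) and Pik3r1 (0.20) in the interaction. With a trend over GC content and exon length taken out of each library, Irs2 turned in the interaction (-0.37). No value that turned was called. Leaving out 1 library turned signs between genotypes on SD for Akt2 (-0.35 to 0.16), Insr (-0.25 to 0.11) and Slc2a4 (-0.42 to 0.10), between diets in WT for Grb14 (-0.45 to 0.35) and Tbc1d4 (-0.07 to 0.55), between diets in KO for Akt2 (-0.55 to 0.17) and Grb10 (-0.16 to 0.13), and in the interaction for Grb10 (-0.23 to 0.06), Irs2 (-0.25 to 0.33) and Pik3r1 (-0.43 to 0.02). Of the members' log2 fold changes under the other settings, 565 kept their sign and their side of the limits, 41 lost the call, 5 gained it and 19 turned, and the causes were not tested.

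Calls over all genes went, with the WT HFD libraries averaged, from 6053 to 3445 between genotypes on HFD, 3377 to 539 between diets in WT, 202 to 28 between diets in KO and 3274 to 517 in the interaction. Without a filter they were 1701 between diets in WT, 3 between diets in KO, 438 of 886 between genotypes on SD and 721 in the interaction. At the stricter limits they were 3032, 403, 937, 25 and 732 in the order genotypes on HFD, genotypes on SD, diets in WT, diets in KO and interaction. With quantile normalization they were 2186 between diets in WT and 304 between diets in KO. In the latter comparison they were also 112 with a pseudocount of 0.1, 330 with 8 and 0 in a fit of only those 2 groups, which gave 461 between genotypes on SD and no interaction. Of the 91 further pathway genes, averaging left 25 of 42 between genotypes on HFD, 4 of 17 between diets in WT, 0 of 2 between diets in KO and 4 of 24 in the interaction, and no filter left 4 in the interaction. The stricter limits left 18, 7, 0 and 5 in that order, and the trend correction gave 27 between diets in WT. Without 1 library, calls over all genes ran from 3629 to 6383 between genotypes on HFD, 381 to 1023 on SD, 628 to 3866 between diets in WT, 14 to 961 between diets in KO and 530 to 4249 in the interaction, and those of the 91 genes from 26 to 48, 5 to 7, 3 to 19, 0 to 11 and 4 to 35. The lowest of the 91 came without WT HFD replicate 2 between genotypes on HFD (26), WT SD replicate 1 between diets in WT (3), and either of these in the interaction (4). The highest between diets in KO came without KO HFD replicate 1 (11) or KO SD replicate 1 (10).

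Each label names its own mouse, and whether a replicate number marked a shared litter or batch is not given in the sources used here. The block lost the calls of Irs2 between diets in WT (adjusted p = 0.052) and of Insr and Slc2a4 in the interaction, left 112 genes between diets in KO, and changed no other member call. In that comparison same-numbered libraries correlated at -0.300, and a crossed pairing, chosen after seeing the data, gave 344 genes and 0 members. With 2 libraries a group the number of libraries limits precision, and most strongly for Grb14, whose lowest library held 47 normalized counts.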
